A study of Danio rerio with 2 samples.

Results

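The accessible places described here are the ATAC-seq peaks in 4 stretches of the zebrafish genome that the study displayed as Hi-C contact maps. A peak was counted when its summit lay between 20 and 30 Mb on chromosome 18, between 19 and 26 Mb on chromosome 11, between 33.4 and 39.4 Mb on chromosome 13 or between 15.6 and 21.6 Mb on chromosome 24. These windows were 10, 7, 6 and 6 Mb long and held 823, 425, 290 and 448 peaks, which makes 1986 of the 82203 peaks on chromosomes 1 to 25 and of the 84715 peaks in the whole list. The rule used positions only, so scores, widths and spacing were free to vary. Open chromatin was measured in untreated wild-type embryos of the Tubingen strain at 4 hpf (hours post-fertilization), with about 300 embryos per tube and 2 biological replicates. Both replicates belong to the same group, and the study compared no treatment by ATAC-seq. The map on chromosome 18 was drawn for sperm and for every embryo stage, the map on chromosome 11 for embryos before the onset of transcription and for later embryos and sperm, and the maps on chromosomes 13 and 24 for sperm and late embryos. How the windows were picked is not stated in the sources used here.

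In ATAC-seq a transposase cuts and tags DNA that is not covered by nucleosomes, so that promoters, enhancers and other sites held open by bound proteins give short fragments. In the zebrafish embryo the zygotic genome begins to be transcribed shortly before the stage studied here. Pou5f3, Nanog and Sox19b, maternal transcription factors, are known to open many enhancers at this time. Hi-C measures which parts of a chromosome touch each other, and the paper describes small contact domains at strong enhancers. The deposited peaks were called on both replicates together, and a peak has no value per replicate. The spread over replicates is therefore not known, no test was made, and the sequencing depth behind the list is not known either. Every share of windows below is a description of this 1 pooled list, in which windows of equal size overlap and are not replicates. Whole embryos were used, so more cells with an open site and a more open site per cell cannot be told apart. No Zv10 sequence or annotation was used here, so places are given by position in Zv10, with no gene and no sequence.

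The windows differed from each other both in how many peaks they held and in the share of strong ones. The window on chromosome 18 held 82.3 peaks per Mb and that on chromosome 24 held 74.7, while those on chromosomes 11 and 13 held 60.7 and 48.3. Peaks covered 8.65% and 8.40% of the length on chromosomes 18 and 24 and 5.94% and 4.36% on chromosomes 11 and 13. Outside the windows, chromosomes 1 to 25 had a median of 5 peaks per 100 kb bin, and the windows had medians of 7 on chromosomes 18 and 24, 5 on chromosome 11 and 4 on chromosome 13. Each window also stood beside the rest of its own chromosome. Density in the window was 1.56 times the 47.7 peaks per Mb of the rest on chromosome 24, 1.09 times 75.3 on chromosome 18, 1.03 times 59.0 on chromosome 11 and 0.866 times 55.8 on chromosome 13. The crowded chromosome 18 window was thus close to its chromosome, whereas the window on chromosome 24 was fuller than the remainder of that chromosome.

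**Figure D1:**
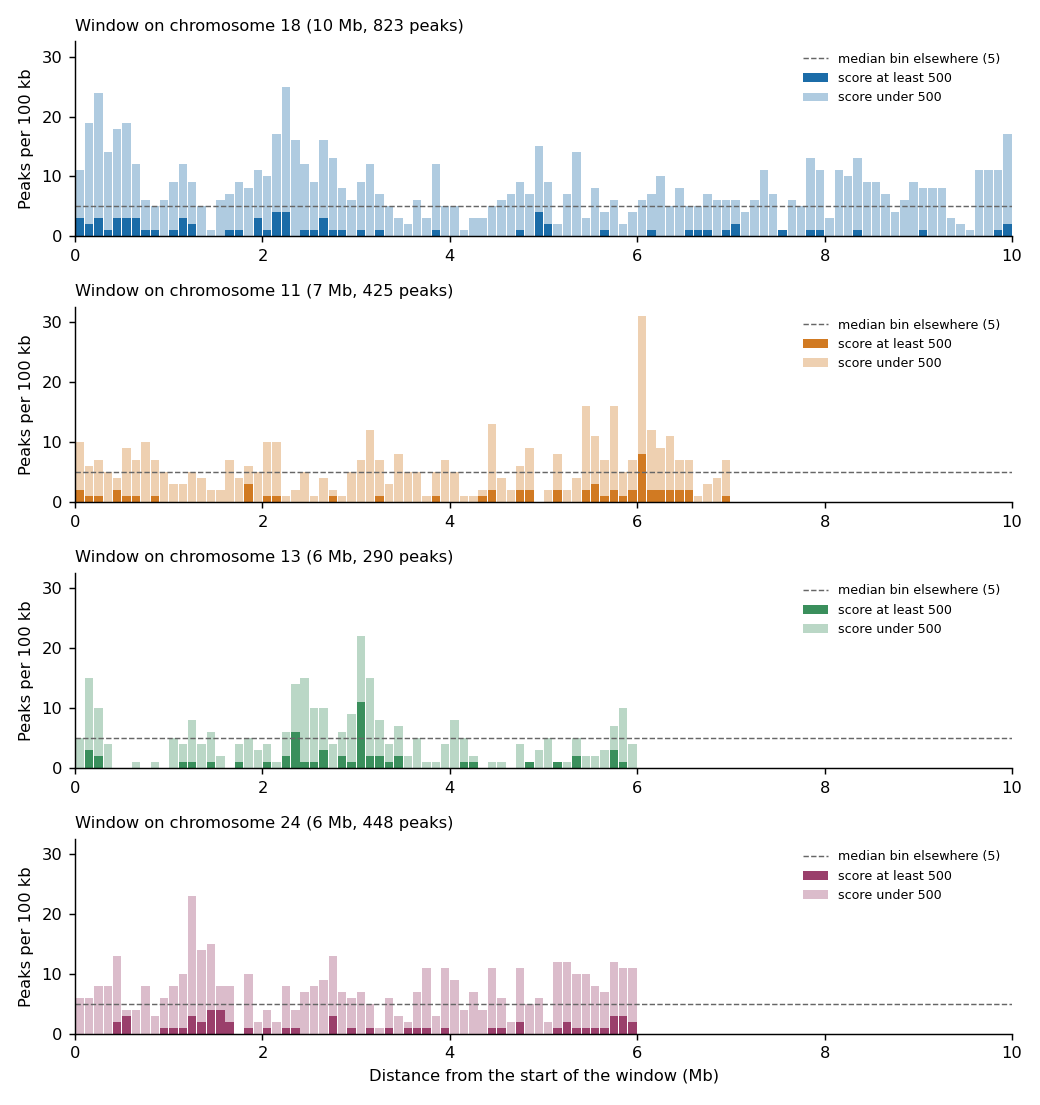
Number of peak summits in each 100 kb bin (y axis) by distance from the start of the window in Mb (x axis), with peaks scoring at least 500 in the dark part of each bar, other peaks in the pale part and the median bin outside the windows, 5 peaks, as a dashed line. The chromosome 18 window had no empty bin, the chromosome 11 window held a bin of 31 peaks, and the chromosome 13 window had 7 empty bins.

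The surplus of the chromosome 18 window lay among weak peaks. The score is the value the authors' peak caller gave to each peak, on a scale the list does not name. Peaks scoring under 200 numbered 63.6 per Mb in the chromosome 18 window, against 40.2 per Mb outside the windows, and peaks scoring at least 200 numbered 18.7 per Mb, against 21 per Mb. In the chromosome 24 window both kinds were more frequent, with 49.3 per Mb under 200 and 25.3 per Mb at 200 or more. The chromosome 13 window was short of weak peaks, at 29.7 per Mb, and nearer to the outside value for the others, at 18.7 per Mb. On chromosome 11 the values were 39.9 and 20.9 per Mb, both close to those outside. Median scores were 106 on chromosome 18, 136 on chromosome 11, 135 on chromosome 13 and 136 on chromosome 24, against 131 outside. Median widths differed little, from 700 bp on chromosome 13 to 755 bp on chromosome 24, against 740 bp outside.

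**Figure D2:**
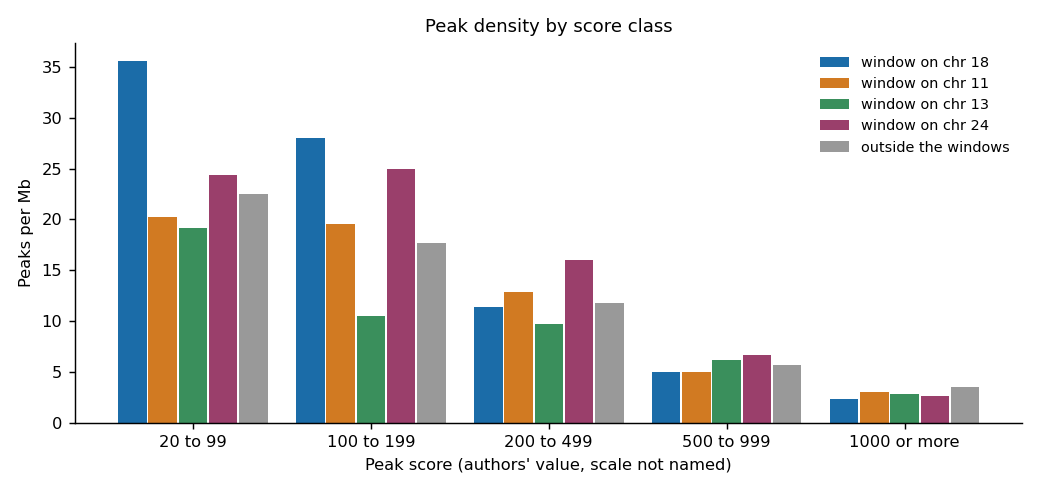
Peaks per Mb (y axis) in 5 score classes (x axis) for the 4 windows and, in grey, for chromosomes 1 to 25 outside them. In the class from 20 to 99 the chromosome 18 window had 35.6 peaks per Mb, against 22.5 outside, and in the class of 1000 or more it had 2.30, against 3.49.

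Strong peaks, those scoring at least 500, made up 14.9% of all peaks on chromosomes 1 to 25. In the windows there were 73 on chromosome 18 (8.87% of its peaks), 56 on chromosome 11 (13.2%), 54 on chromosome 13 (18.6%) and 56 of 448 on chromosome 24. Only the chromosome 13 window thus lay above that background, and it was also the emptiest window. Per Mb the order was different, with 9.33 strong peaks on chromosome 24, 9 on chromosome 13, 8 on chromosome 11 and 7.30 on chromosome 18, against 9.18 outside the windows. The low share on chromosome 18 was not limited to the window. In the rest of chromosome 18 strong peaks made up 9.49%, and the chromosome as a whole, at 9.36%, had the lowest share of the 25. Near the limit, the weakest strong peaks of the windows scored 505 to 508, and the best-scoring peaks below it 495 to 498.

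The chromosome 18 window had a crowded beginning, followed by a stretch of ordinary density. From 23 to 27 Mb each Mb held 59 to 65 peaks, against 61.3 per Mb over all numbered chromosomes. From 27 to 30 Mb each Mb held 70 to 81. None of the 100 bins of this window was empty, against 5.44% of the bins outside the windows. No empty bin was also found in 7.39% of equal windows elsewhere, and in 19.1% of those with a density within 10% of its own. Of the 100 bins on chromosome 18, 31 held at least 10 peaks (31%, against 19.8% of the bins outside the windows). The fullest bins lay from 22200001 to 22300000 with 25 peaks, from 20200001 to 20300000 with 24 and from 20100001 to 20200000 with 19. They belonged to its largest clusters, in which every peak lay at most 0.0125 Mb from the next. The cluster from 20122451 to 20293100 held 42 peaks, of which 5 were strong, and that from 22222951 to 22369060 held 37, of which 4 were strong. A cluster from 20541041 to 20648060 held 27 peaks with 6 strong ones. The beginning of the window was therefore rich in both weak and strong peaks.

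After 23 Mb the chromosome 18 window changed in strength more than in number. The stretch from 20 to 23 Mb, chosen after the profile was seen, held 343 peaks or 114 per Mb, and the stretch from 23 to 30 Mb held 480 or 68.6 per Mb. Of the 73 strong peaks 47 lay in the first stretch (15.7 per Mb) and 26 in the rest (3.71 per Mb). Strong peaks were thus 13.7% of the peaks in the first stretch and 5.42% in the longer one. The part from 28 to 29 Mb held 81 peaks with a single strong one. The highest scores were 3443 for the peak from 20235661 to 20238510, 2060 for the peak from 22296571 to 22303870 and 1965 for the peak from 21695331 to 21696160. All of these lay in the first 3 Mb.

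The chromosome 11 window was thin in strong peaks for most of its length and filled up near its end. From 19 to 24 Mb it held 255 peaks (51.0 per Mb) with 24 strong ones (4.8 per Mb), and from 24 to 26 Mb 170 peaks (85.0 per Mb) with 32 strong ones (16 per Mb, against 9.18 per Mb outside the windows), a division again made after the profile was seen. The bin from 25000001 to 25100000 held 31 peaks, 8 of them strong, and 21 of 13098 bins outside the windows (0.16%) held at least as many. That bin was picked as the fullest of its window, so the fullest bins of equal windows elsewhere are the closer comparison. Of those windows 3.54% had a higher maximum and 0.717% the same one. The next fullest bins, from 24400001 to 24500000 and from 24700001 to 24800000, held 16 each. The full bin sat in a cluster of 36 peaks from 24989001 to 25119300, of which 9 were strong and the highest scored 2916. Clusters of 17 peaks from 24715711 to 24807410 and of 11 peaks from 23425671 to 23470760 followed in size. The strongest peak of this window stood outside the crowded end. It scored 6325 and lay from 23743301 to 23747420, followed by peaks of 2916 from 25058401 to 25060060 and of 2670 from 25090221 to 25091500 inside the largest cluster.

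The chromosome 13 window had an almost empty stretch, a crowded middle and a thin end. Between 33.8 and 34.4 Mb, 6 bins in a row held at most 2 peaks each and 2 peaks in all. From 35.4 to 37.4 Mb, a stretch also picked from the profile, it held 148 peaks or 74.0 per Mb. The parts before and after it held 38.5 and 32.5 peaks per Mb. Strong peaks followed the same course, with 35 of 54 in the middle (17.5 per Mb), 9 before it and 10 after it. The middle was centred on the largest cluster of this window, 39 peaks from 36393701 to 36580950 over 187 kb, with 13 strong ones. Of the 22 peaks in the bin from 36400001 to 36500000, 11 were strong, the most in any bin of the 4 windows. Of equal windows elsewhere, 13.2% had a bin with more strong peaks, and in 2.49% the highest number was the same. In the chromosome 13 window the highest scores were 2726 from 36406601 to 36413060, in that cluster, 2400 from 35780601 to 35782670 and 1829 from 35401321 to 35403220. Not every full place lay in the middle. Bins of 15 peaks came next, among them those from 33500001 to 33600000 and from 35800001 to 35900000. Clusters of 12 peaks followed in size, from 33545801 to 33581190 and from 35829401 to 35877180.

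The chromosome 24 window was filled evenly. A single bin of 60 was empty, and 18 held at least 10 peaks (30%, against 19.8% outside). The 10% fullest bins held 20.1% of its peaks, while they held 22.6% on chromosome 18, 26.1% on chromosome 11 and 31.4% on chromosome 13. The fullest bins adjoined each other, with 23 peaks from 16800001 to 16900000, 14 from 16900001 to 17000000 and 15 from 17000001 to 17100000. Clusters of 22 peaks from 16760161 to 16840110, 12 from 16852681 to 16903850 and 25 from 16964951 to 17082100 lay there in close succession. The Mb from 16.6 to 17.6 held 98 peaks with 18 strong ones and the last Mb 95 with 15, both picked from the profile. The 3 Mb between them held 63.0 peaks and 5.67 strong peaks per Mb. Even so, the third largest cluster lay in that thinner part, with 20 peaks from 18256081 to 18347700, of which 3 were strong. It held the third highest peak of the window, scoring 2290, from 18301741 to 18303330.

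A single peak on chromosome 24 stood far from all others in the windows. It reached from 16115731 to 16137630, was 21.9 kb wide and scored 108922, which placed it 52nd among all peaks on chromosomes 1 to 25. It held 49.0% of the summed score of its window. As the scale of the score is not named, this share is no measure of how much open chromatin lay there. The next score in the window was 3240, for the peak from 16860791 to 16861860. Scores of at least 10000 were found for 0.218% of all peaks, and this was the only one in the 4 windows. It was picked as the highest of its window, so equal windows elsewhere are the closer comparison. Of those, 18.1% held 1 peak of at least 10000 and 20.0% held more, and 13.9% had a higher maximum score. The 21.9 kb peak closed a run of 5 strong peaks within 43.0 kb, from 16094601 on. Without this peak the window had 74.5 peaks per Mb and 55 strong peaks, where leaving out a single peak could lower each count by no more than 1. Its clusters of at least 10 peaks then numbered 5 instead of 6.

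Joining peaks at gaps of at most 0.0125 Mb, the default distance at which the ROSE enhancer search stitches sites, gave 233 clusters on chromosome 18, 149 on chromosome 11, 111 on chromosome 13 and 134 on chromosome 24. On chromosomes 1 to 25, 45.6% of such clusters were single peaks. Single peaks were 33.9% of the clusters on chromosome 18 and 34.3% on chromosome 24, and 46.3% and 50.5% on chromosomes 11 and 13. Single peaks were thus a smaller share of clusters in the fuller windows. Clusters of at least 10 peaks numbered 8, 7, 4 and 6 in the windows on chromosomes 18, 11, 13 and 24 and held 20.8%, 24.5%, 25.5% and 22.1% of the peaks. Over chromosomes 1 to 25 such clusters were 4.99% of all clusters and held 28.6% of the peaks. In equal windows elsewhere the medians of this share of peaks were 23.9%, 23.0%, 22.1% and 22.1% for chromosomes 18, 11, 13 and 24. The windows on chromosomes 11 and 13 thus lay above their median, that on chromosome 24 at it and that on chromosome 18 below. For its density the chromosome 18 window had few large clusters, since among the 303 windows elsewhere whose density lay within 10% of its own the median was 17, and none had 8 or fewer. These windows held a median of 36.4% of their peaks in large clusters, and 1.65% of them held a smaller share than the chromosome 18 window. For chromosomes 11, 13 and 24, 59.8%, 83.5% and 15.4% of the windows of like density held a smaller share. Clusters of 3 to 9 peaks held 58.2% of the peaks on chromosome 18 and 53.8% on chromosome 24, and 44.2% and 37.9% on chromosomes 11 and 13.

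The 25 clusters of at least 10 peaks spanned 31.5 to 187 kb with a median of 56.6 kb, and 8 of them held at least 20 peaks. A strong peak was found in all but 3, which were the clusters from 19735101 to 19789110 and from 24391441 to 24433040 on chromosome 11 and from 29815031 to 29866890 on chromosome 18. The last of these had a highest score of 113, so a crowded place was not always one of strong peaks. How many of the 1345 clusters of this size on chromosomes 1 to 25 held a strong peak was not counted. In each window strong peaks were a larger share in the clusters of at least 10 peaks than among single peaks. The shares were 28.4% in clusters and 17.9% among single peaks on chromosome 13, 19.2% and 8.70% on chromosome 24, 16.3% and 10.1% on chromosome 11, and 13.5% and 6.33% on chromosome 18. Between these sizes the share rose steadily only on chromosome 18. In pairs it was 10% on chromosome 13, 12.9% on chromosome 24, 3.13% on chromosome 11 and 6.38% on chromosome 18. In clusters of 3 to 9 it was 16.4%, 10.4%, 16.0% and 8.14%. Shares by cluster size were not taken outside the windows. Fuller bins also had the larger share. Strong peaks made up 24.8%, 15.5%, 15.4% and 11.4% of the peaks in bins of at least 10 on chromosomes 13, 24, 11 and 18, and 14.2%, 9.65%, 11.8% and 6.12% in bins with fewer. Outside the windows these shares were 18.7% and 11.8%, so the difference by bins was not particular to the windows. One cluster was cut by a window edge, with 2 of its 14 peaks inside the chromosome 18 window.

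Long stretches without any peak were rare in the full windows. Gaps of at least 100 kb between adjacent peaks, which were 1.79% of all gaps on chromosomes 1 to 25, numbered 2 in the chromosome 18 window, 7 on chromosome 11, 10 on chromosome 13 and 2 on chromosome 24. They took up 2.43%, 12.6%, 25.2% and 3.85% of the windows, against 16.4% of the length outside. Of equal windows elsewhere, 17.7% had a larger share in such gaps than the chromosome 13 window, and 17.3% held a longer gap than any of its own. The longest gap in the 4 windows was 265 kb, on chromosome 13, from 33769151 to 34034230. A single peak scoring 43 parted it from a gap of 212 kb, from 34034771 to 34246370, and a further peak scoring 129 parted that from a gap of 168 kb, from 34247031 to 34415140. These gaps made up the almost empty stretch of that window. A second chain of 3 gaps on chromosome 13 ran from 37680541 to 38099960, with gaps of 172, 113 and 133 kb and peaks of 61 and 56 between them. Of the 20 peak positions flanking long gaps on chromosome 13, 1 was strong, and their median score was 76. A peak between adjacent gaps, as in these chains, was counted once for each gap. Scores of peaks beside long gaps were not taken outside the windows.

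On the other chromosomes adjacent long gaps were never parted by only a single peak. The longest on chromosome 11 was 194 kb, from 23882481 to 24076080, just before the crowded end of the window. Others there measured 135 kb, from 21750231 to 21885250, and 119 kb, from 21457141 to 21576580. A gap of 114 kb, from 21203281 to 21317550, lay shortly before these, so that long gaps lay close together in that part of the window. Flanking peaks on chromosome 11 were stronger, with a median score of 214 and 3 of 14 strong. The longest gaps on chromosomes 18 and 24 were 135 kb, from 27458181 to 27592940, and 126 kb, from 17289581 to 17415120. Both of these windows had only 1 further gap of at least 100 kb, from 29446521 to 29555180 on chromosome 18 and from 18826631 to 18932300 on chromosome 24.

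**Figure D3:**
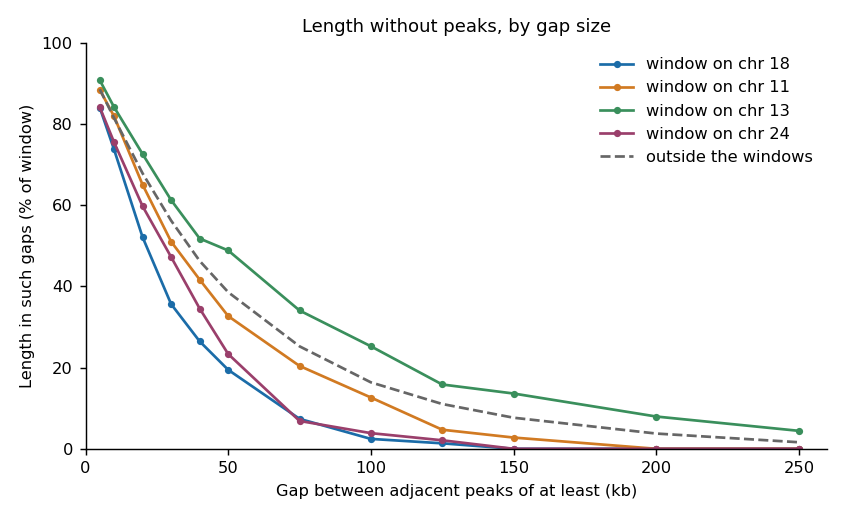
Share of the length (y axis, percent) that lay in gaps between adjacent peaks of at least the size on the x axis (kb), for each window and, dashed, for chromosomes 1 to 25 outside them. At 50 kb the shares were 19.4% on chromosome 18, 32.7% on chromosome 11, 48.8% on chromosome 13 and 23.3% on chromosome 24, against 38.6% outside.

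Strong peaks were spaced unevenly in every window, with runs of neighbours and wide stretches between them. The median distance between adjacent strong summits was 57.9 kb on chromosome 18, 51.7 kb on chromosome 11, 42.0 kb on chromosome 13 and 56.9 kb on chromosome 24, against medians of 43.1, 45.9, 46.2 and 46.2 kb in equal windows elsewhere. The standard deviation of the distances over their mean was 1.48, 1.53, 1.59 and 1.13 on chromosomes 18, 11, 13 and 24. Of equal windows elsewhere, 41.9%, 55.0%, 64.6% and 7.04% had a lower value. Spacing on chromosome 24 was thus less uneven than in most equal windows. The smallest distances were 1.16 to 2.04 kb. The largest between strong peaks of the same window were 861, 914, 867 and 489 kb. These leave out stretches cut by an edge. The chromosome 24 window opened with 496 kb and 39 weaker peaks before its first strong summit, part of a stretch of 965 kb that reached back beyond the window. The last 193 kb of the chromosome 13 window belonged to a stretch of 1002 kb in the same way. Distances of at least 200 kb numbered 12, 11, 10 and 9 and took up 65.3%, 70.8%, 64.9% and 45.8% of the windows. These shares also leave out stretches cut by an edge, among them the 496 kb that opened the chromosome 24 window. Such distances were not counted outside the windows, so whether these shares are usual is not known. Of strong peaks on chromosomes 1 to 25, 49.2% had another strong summit within 0.0125 Mb. In the windows this held for 31 of 73 on chromosome 18 (42.5%), 23 of 56 on chromosome 11 (41.1%), 28 of 54 on chromosome 13 (51.9%) and 20 of 56 on chromosome 24 (35.7%). Some strong peak was present in 34 of 60 bins on chromosome 24, and in 43 of 100, 31 of 70 and 26 of 60 bins on chromosomes 18, 11 and 13. Bins without one were 43.3% on chromosome 24, against a median of 58.3% in equal windows elsewhere, of which 9.53% had a smaller share. On chromosomes 18, 11 and 13 they were 57%, 55.7% and 56.7%, close to medians of 57%, 57.1% and 58.3% elsewhere.

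The longest stretches between adjacent strong peaks inside a window were not empty. On chromosome 18, 42 weaker peaks lay between the strong peak from 23887621 to 23889540 and that from 24749931 to 24750520, with a highest score of 422. On chromosome 11, 36 lay between the strong peaks from 19894221 to 19896720 and from 20807711 to 20809180, and on chromosome 24, 34 between those from 19572611 to 19575050 and from 20063481 to 20064110. Per Mb these were 48.8, 39.4 and 69.6 weaker peaks. On chromosome 13 the stretch between the strong peaks from 33696061 to 33697170 and from 34563291 to 34563850 held 14 weaker peaks, or 16.1 per Mb, and included the almost empty bins. Weaker peaks were thus sparser in the longest stretch on chromosome 13 than in those of the other windows.

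Runs of at least 3 strong peaks, each summit at most 0.0125 Mb from the next, numbered 6 on chromosome 18, 1 on chromosome 11, 3 on chromosome 13 and 2 on chromosome 24. The windows differ in length and in their number of strong peaks, and runs were not counted elsewhere. Whether these numbers are usual is therefore not known. The run with the most members had 6 strong peaks over 41.6 kb, from 36399521 to 36441160 on chromosome 13, with scores of 524 to 2726, and a run of 3 scoring 1236 to 1545 followed from 36456151 to 36470470. Both lay in the cluster of 39 peaks. On chromosome 18 a run of 4 from 22277781 to 22303870 scored 755 to 2060, and the other 5 runs had 3 strong peaks each. The run on chromosome 11, from 25007491 to 25023170, scored 759 to 1571 and lay in the cluster of 36 peaks.

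**Figure D4:**
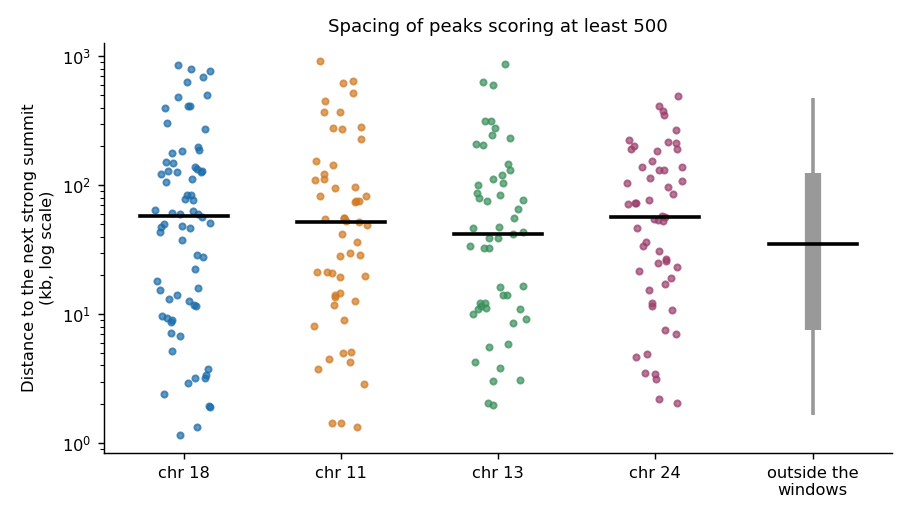
Distance from each peak scoring at least 500 to the next one in the same window (y axis, kb, log scale), with 1 point per distance and a black line at the median, and outside the windows the median as a black line, the middle 50% as a thick bar and the 5th to 95th percentile as a thin line. Stretches cut by a window edge are left out, and distances on chromosome 24 ended at 489 kb, while the largest on the other chromosomes were 861, 914 and 867 kb.

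Wide peaks in the windows were mostly weak and alike in size. Peaks wider than 5 kb made up 1.04% of all peaks on chromosomes 1 to 25, and the windows held 14 on chromosome 18 (1.70% of its peaks), 5 on chromosome 11 (1.18%), 1 on chromosome 13 (0.345%) and 6 on chromosome 24 (1.34%). Of these 26, 5 were strong (19.2%), against 426 of 829 outside the windows (51.4%), and their median score was 171, against 548. On chromosome 18, which held 14 of the 26, the window had 21.4% strong and a median of 169.5, and the 34 wide peaks of the rest of that chromosome had 26.5% and 198.5, so that wide peaks were weak there outside the window too. A group of 20 had widths of 5.04 to 5.95 kb and scores of 113 to 283. Such peaks, under 6 kb and scoring under 300, were 76.9% of the wide peaks in the windows and 35.9% of those outside, limits that were chosen after the values were seen. Of these 20, 10 lay on chromosome 18, 5 on chromosome 11 and 5 on chromosome 24. On chromosome 18 they included neighbours from 28093131 to 28098910, scoring 138, and from 28107821 to 28113440, scoring 132. The widest peak of each window was the 21.9 kb peak of chromosome 24, one of 7.94 kb from 29886391 to 29894330 on chromosome 18 scoring 577, one of 6.46 kb from 36406601 to 36413060 on chromosome 13 scoring 2726, and one of 5.82 kb from 23062031 to 23067850 on chromosome 11 scoring 169.

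Lone and closely paired peaks varied with density. Peaks with no other peak within 50 kb, 1.42% of all on chromosomes 1 to 25, numbered 4 on chromosome 18, 4 on chromosome 11, 10 on chromosome 13 and 1 on chromosome 24. Peaks with another within 1 kb, 29.7% of all, were 31% of the peaks on chromosome 18, 28.5% on chromosome 11, 21% on chromosome 13 and 31.9% on chromosome 24. The chromosome 13 window thus had the most lone peaks and the smallest share of close neighbours.

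Each window was then set against windows of equal size elsewhere, taken every 0.5 Mb on chromosomes 1 to 25 and touching none of the 4. There were 2056 such windows of 10 Mb, 2230 of 7 Mb and 2288 of 6 Mb. Density was above that of 90.7% of them on chromosome 18, 80.8% on chromosome 24, 52.8% on chromosome 11 and 28.7% on chromosome 13. When only peaks scoring at least 200 were counted, these shares were 42.4%, 78.8%, 57.6% and 46.5%. The high place of the chromosome 18 window was thus lost without its weak peaks, whereas the chromosome 24 window kept its own. The share of strong peaks was higher than in 3.94% of equal windows on chromosome 18, 30.3% on chromosome 24, 35.8% on chromosome 11 and 83.0% on chromosome 13.

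The evenness of the profile was measured as the variance of peak counts per 100 kb bin over their mean, which grows as peaks crowd into few bins. It was 2.22 on chromosome 24, 2.79 on chromosome 18, 3.63 on chromosome 11 and 4.29 on chromosome 13, higher than in 9.48%, 21.9%, 64.3% and 83.8% of equal windows elsewhere. Fewer long gaps than on chromosome 18 were found in 1.36% of equal windows and as many in 3.40%, and for chromosome 24 the shares were 7.60% and 6.64%. More long gaps than on chromosome 13 were found in 15.1% of equal windows and as many in 4.90%. Long gaps are fewer where peaks are dense, and the median variance over mean was much the same in windows of like density as in all. The windows were also set, after the data were seen, against only those of like density, of which there were 303 for chromosome 18, 600 for chromosome 11, 417 for chromosome 13 and 519 for chromosome 24. Among these, 3.85% had a more even profile than the chromosome 24 window and 10.8% a less even one than the chromosome 13 window. Fewer long gaps than on chromosome 18 were found in 2.64% and as many in 10.2%, and a lower share of strong peaks in 4.95%. For chromosome 24 the shares with fewer and with as many long gaps were 9.63% and 15.4%. More long gaps than on chromosome 13 were found in 11.3% and as many in 7.43%. The chromosome 11 window stayed between 38.2% and 57.8% by evenness, long gaps and strong share, near the middle of its equals.

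**Figure D5:**
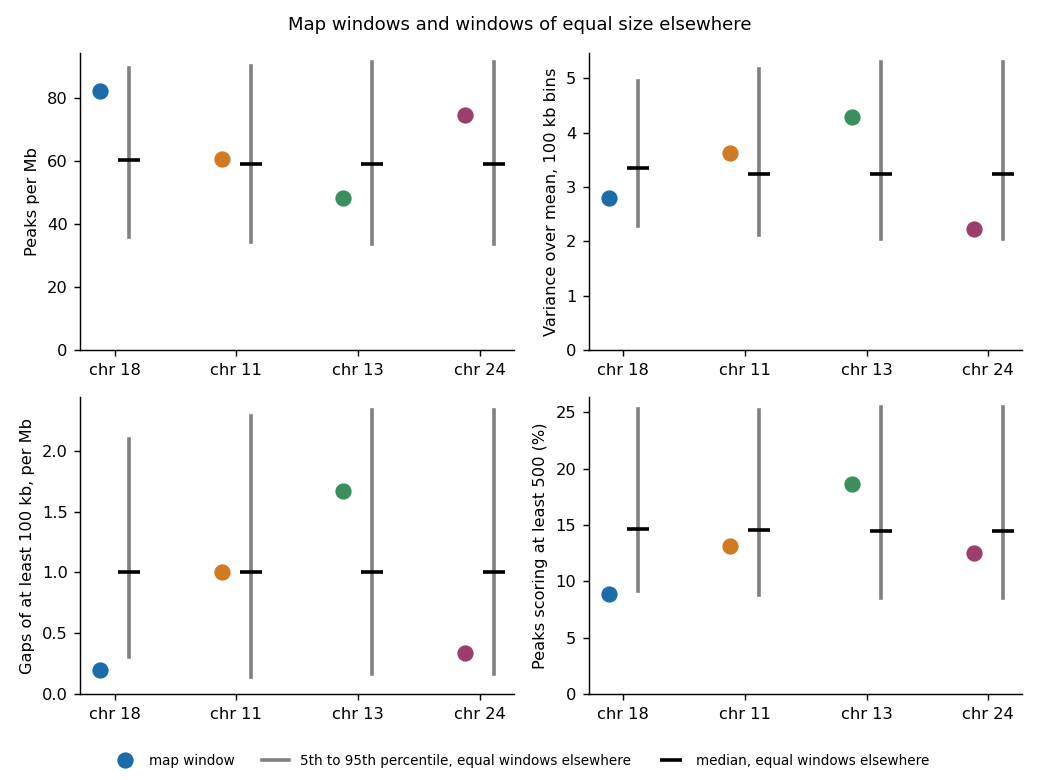
Peaks per Mb, variance over mean of 100 kb bins, gaps of at least 100 kb per Mb and the percent of peaks scoring at least 500 (y axes) for each window (coloured point, x axis) beside windows of equal size elsewhere (grey line from the 5th to the 95th percentile, black mark at the median). The chromosome 18 window lay below the 5th percentile of 0.300 long gaps per Mb, at 0.200, and just below that of strong peaks, 9.13%, at 8.87%.

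Neighbouring bins resembled each other most in the windows on chromosomes 13 and 18. Pearson's r between the counts of adjacent 100 kb bins was 0.598 on chromosome 13, 0.567 on chromosome 18, 0.257 on chromosome 11 and 0.253 on chromosome 24, over 60, 100, 70 and 60 bins, against medians of 0.309, 0.337, 0.320 and 0.309 in equal windows elsewhere. These are bins of 1 list, in which a cluster can reach over a border between bins. The values on chromosomes 13 and 18 were above those of 96.3% and 96.5% of equal windows elsewhere.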

How the data were processed

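The submitters gave 2 biological replicates of ATAC-seq at 4 hpf, labelled as 1 group, and 1 peak list. No label says that the replicates came from separate clutches. Alignment to Zv10 used Novoalign, which the submitters' processing notes give as version 3.8, and a read that fitted several places was put at 1 of them at random. Sequencing runs of a replicate were joined by SAMtools. Peak calling took fragments between 30 and 120 bp, a cutoff of 2 and the depth of the smaller replicate as the common scale, and gave 1 list for both. The deposited score per peak has no named scale, and the columns for enrichment, p and q hold only 0. The other deposited columns are positions in bp. Names of the peaks hold the word nodedup, while the supplementary methods give an option spelled nodup, so whether duplicates were kept is not certain, and which sequencing runs entered the list is not stated. Random placement, and duplicates if kept, can raise scores in repeated sequence. Depth is unknown, so no counting interval is given.

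Starts are printed counted from 1. Chromosome length was taken to the end of the last peak. The list was analysed and plotted with matplotlib 3.10.9, scipy 1.17.1, numpy 2.4.6 and pandas 2.3.3 under Python 3.11.15. Layouts with known clusters, gaps and strong peaks were simulated, and the measures returned them. Named places were, in each window, the 3 fullest bins, largest clusters, longest gaps and highest-scoring peaks, with ties going to the lower position. The widest peak and the strong peaks beside the longest stretch between adjacent strong peaks were named too. Any further place named was picked with its value known. Windows, measures and limits were chosen with earlier results of these data known. Genes and motifs were planned and not run, since the annotation at hand was of another build. Alternatives changed the comparison windows, the score, bin, joining and gap limits.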

Additional observations from a re-analysis of the deposited data

How the results depend on the processing

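The density of a window itself could change only with limits on the score, and a higher minimum can only lower it. With only peaks scoring at least 200 it was 18.7 per Mb on chromosome 18, 20.9 on chromosome 11, 18.7 on chromosome 13 and 25.3 on chromosome 24, and the share of equal windows elsewhere with a lower density was 42.4%, 57.6%, 46.5% and 78.8%. With a minimum score of 40 this share was 89.1% on chromosome 18 and 26.6% on chromosome 13, and without chromosome 4 among the comparison windows it was 92.8% on chromosome 18 and 82.6% on chromosome 24. Comparison windows that did not overlap gave 89.6%, 52.1%, 29.1% and 79.8% on chromosomes 18, 11, 13 and 24. Bins of 200 kb gave a variance over mean of 4.44 on chromosome 18 and 6.72 on chromosome 13, and bins of 50 kb gave 2.81 on chromosome 13, while on chromosome 24 the values were 2.18 with bins of 50 kb and 2.70 with bins of 200 kb. The cause was not tested. Joining within 5 kb left 3, 1, 1 and 2 clusters of at least 10 peaks on chromosomes 18, 11, 13 and 24, and joining within 25 kb gave 24, 11 and 16 on chromosomes 18, 11 and 24. Gaps of at least 50 kb numbered 28, 27, 30 and 20, and gaps of at least 200 kb 0, 0, 2 and 0. From a score of 300, strong peaks numbered 121 on chromosome 18, 100 on chromosome 11 and 111 on chromosome 24, with median spacings of 31.5 kb on chromosome 11 and 19.8 kb on chromosome 24. From a score of 1000 they numbered 23, 21, 17 and 16 on chromosomes 18, 11, 13 and 24, with median spacings of 110 kb on chromosome 18 and 205 kb on chromosome 11.

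Comparison with windows of like density was added after seeing the data. There the shares of windows with a lower variance over mean were 19.8%, 57.8%, 89.2% and 3.85% for chromosomes 18, 11, 13 and 24. Fewer long gaps were found in 2.64%, 47.5%, 81.3% and 9.63% for chromosomes 18, 11, 13 and 24. A lower share of strong peaks was found in 4.95%, 38.2%, 88.2% and 32.8% for chromosomes 18, 11, 13 and 24. As many long gaps were found in 10.2%, 19%, 7.43% and 15.4% for chromosomes 18, 11, 13 and 24. In 68 of 120 comparisons of an alternative with the value reported they differed by less than the limit set for them, which was 1.5 times for counts and other measures and, for shares of windows, the width of a binomial interval taken only as a yardstick, since the windows overlap. Some outcomes were fixed in advance. The windows on chromosomes 18, 11 and 13 held no peak scoring at least 10000, so leaving such peaks out returned the same counts. On chromosome 24 this left out a single peak, so the counts of peaks and of strong peaks could fall by no more than 1. Counts of gaps and strong peaks can only rise with a lower limit and fall with a higher one. The tally is therefore no measure of robustness. No paired analysis was possible because the list holds no value for either replicate, and leaving out a replicate was not possible for the same reason. The number of open sites missed in the windows is not known, as the depth is not.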
